A study of Arabidopsis thaliana with 12 samples.

Results

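The morning arm of the Arabidopsis thaliana circadian clock was followed through the transcripts of 10 genes: CCA1 (AT2G46830), LHY (AT1G01060), RVE1 (AT5G17300), RVE2 (AT5G37260), RVE7 (AT1G18330), RVE4 (AT5G02840), RVE6 (AT5G52660), RVE8 (AT3G09600), LNK1 (AT5G64170) and LNK2 (AT3G54500). They were taken by gene identifier from a table of 32833 genes, and all 10 passed the filter on low counts. RNA came from whole seedlings of wild-type Col-0 (ecotype Columbia) and of bbx28-5, a line named for BBX28, a B-box zinc finger protein, to ask how BBX28 affects the transcriptional response to shade. Seedlings on agar and water had 2 short days (10 h of light, then 14 h of darkness) and on the following day either stayed in white light (photosynthetically active radiation of 90 µmol per square metre per second, red to far-red ratio 1.1) or went under a green filter for 4 h of simulated shade (20 µmol per square metre per second, ratio 0.145, and less blue light). The 4 groups, Col-0 in white light, Col-0 in shade, bbx28-5 in white light and bbx28-5 in shade, each held 3 biological replicates. The kind of lesion in bbx28-5 and the number of seedlings in a library are not given in the sources used here. All groups were taken at 1 time of that day, so a shift of a daily rhythm and a change of its level cannot be told apart.

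CCA1 and LHY are single-MYB transcription factors that peak around dawn and repress evening genes through a promoter motif called the evening element. The REVEILLE proteins (RVE) carry the same kind of MYB domain. RVE4, RVE6 and RVE8 activate evening genes through the same motif, with LNK1 and LNK2 as coactivators that bind RVE4 and RVE8, whereas RVE1, RVE2 and RVE7 act mainly on outputs of the clock. Light resets this system through phytochromes and other photoreceptors. The pseudo-response regulators (PRR) close the loop by repressing CCA1 and LHY later in the day. ELF3, ELF4 and LUX form the evening complex, another repressor within the clock.

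Upstream sequences are shown for 5 members: the 4 that hold a G-box, a light-response motif bound by phytochrome-interacting factors and HY5, and RVE7, the only member with an evening element in this window. Each is the 300 bases before the annotated start of the gene, 5′ to 3′ on the strand of the gene, from the RefSeq annotation of build TAIR10.1, and capitals mark the motif matches. The search covered both strands for the G-box CACGTG, the evening element AAAATATCT, the CCA1-binding site AAAAATCT and the LUX-binding site written as GATACG or GATTCG, and no matches overlapped.
CCA1, chr2:19245291-19245590, plus strand, G-box beginning 193 bases before the start: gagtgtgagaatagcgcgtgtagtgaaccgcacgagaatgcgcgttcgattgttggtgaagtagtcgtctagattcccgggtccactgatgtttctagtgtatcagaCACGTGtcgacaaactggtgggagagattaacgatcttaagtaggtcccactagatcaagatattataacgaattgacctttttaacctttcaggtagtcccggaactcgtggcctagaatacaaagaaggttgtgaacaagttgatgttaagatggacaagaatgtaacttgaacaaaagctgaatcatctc
LHY, chr1:37872-38171, minus strand, G-box 80 bases before the start: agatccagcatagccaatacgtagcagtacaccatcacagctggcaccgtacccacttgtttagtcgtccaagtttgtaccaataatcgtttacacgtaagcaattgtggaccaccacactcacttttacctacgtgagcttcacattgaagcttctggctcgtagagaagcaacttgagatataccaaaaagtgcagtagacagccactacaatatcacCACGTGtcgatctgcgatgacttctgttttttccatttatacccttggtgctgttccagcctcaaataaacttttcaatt
RVE1, chr5:5692993-5693292, minus strand, G-box 111 bases before the start: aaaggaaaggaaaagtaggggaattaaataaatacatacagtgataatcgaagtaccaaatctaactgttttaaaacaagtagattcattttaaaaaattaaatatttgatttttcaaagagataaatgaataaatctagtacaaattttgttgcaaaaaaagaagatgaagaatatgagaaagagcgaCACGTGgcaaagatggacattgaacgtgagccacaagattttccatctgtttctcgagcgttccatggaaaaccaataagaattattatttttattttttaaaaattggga
RVE2, chr5:14753089-14753388, minus strand, CCA1-binding site 244 and G-box 163 bases before the start: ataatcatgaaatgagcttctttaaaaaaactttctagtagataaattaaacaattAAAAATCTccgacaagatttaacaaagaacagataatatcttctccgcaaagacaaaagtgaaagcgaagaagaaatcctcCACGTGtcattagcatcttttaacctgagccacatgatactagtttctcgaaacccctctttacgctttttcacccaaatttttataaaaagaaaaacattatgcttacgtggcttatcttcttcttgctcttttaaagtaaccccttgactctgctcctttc
RVE7, chr1:6308244-6308543, minus strand, evening element 50 bases before the start: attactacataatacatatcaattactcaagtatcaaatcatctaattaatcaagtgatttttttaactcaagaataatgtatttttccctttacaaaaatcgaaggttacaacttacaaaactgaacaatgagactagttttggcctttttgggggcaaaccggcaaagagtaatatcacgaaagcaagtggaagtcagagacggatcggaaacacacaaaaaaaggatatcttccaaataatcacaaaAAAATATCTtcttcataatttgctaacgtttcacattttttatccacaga

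The G-box occurred in 4 of the 10 members against 8.27% of 19620 upstream regions of the same length of tested genes. The evening element was in 1 member against 2.91% of all regions, the CCA1-binding site in 2 (RVE2 and RVE6) against 7.97%, and the LUX-binding site in 2 (RVE4 and LNK2) against 14.7%. RVE8 and LNK1 held none of these letters in the window. These matches are descriptions of the sequence and were not related to binding in these seedlings.

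Total counts ran from 10.6 to 14.3 M per library. TMM scaling factors were 0.841 ± 0.0442 in bbx28-5 in shade and 1.04 to 1.08 on average in the other groups (n = 3 each), so the scaling bears most on the comparisons that use that group. Of its libraries, replicate 2 was unlike the others, with 2151 genes at least 2-fold from the mean of the other libraries of its group, against 129 to 742 in the other 11 libraries, and results that rest on it are given with and without it. BBX28 was detected in every library, at 64.1 to 74.2 counts per M of TMM-scaled library size (CPM) in Col-0 against 99.8 to 108 in bbx28-5 under white light, and at 104 to 115 against 144 to 209.8 CPM in shade. With the lesion not given, its transcript level does not check the genotype labels. The summed CPM of 5 green-tissue markers, none of them at 0, was 32784 to 36949.9 in Col-0 against 37655 to 38165 in bbx28-5 under white light, and 13949 to 16033 and 20608 to 27325 in shade. Of 5 root markers, whose sum was 161 to 179 and 77.6 to 90.0 CPM in white light and 115 to 152 and 86.0 to 97.0 in shade, IRT1 had no count in bbx28-5 in shade. The sum of 5 seed markers was 50.8 to 127 and 146 to 239.8 CPM in white light and 41.7 to 107 and 118 to 661 in shade. In white light all 5 root markers were lower in bbx28-5 than in Col-0, by log2 differences of -0.52 to -2.70. In shade EXPA7 was higher by 0.25 and the other root markers were lower. All 5 seed markers were higher in bbx28-5, by 0.37 to 4.95 in white light and by 0.93 to 8.68 in shade. Not all of these differences had an adjusted p under 0.05. Within a sum the markers did not move together in every comparison. With shade in bbx28-5 CASP1 and EXPA7 rose by 0.85 and 0.99 on the log2 scale, while PRP3, CYP86A1 and IRT1 changed by -0.51, -1.45 and -7.53. In shade the seed marker CRU3 averaged 0.387 CPM in Col-0 and 162 in bbx28-5, against 71.0 and 135 for CRA1. The sums were not tested as measures of a share of root or seed tissue. These marker levels move with light and genotype, and their part in the results below was not tested. In whole seedlings fewer cells of a type and less RNA per cell cannot be told apart.

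In shade the morning genes went in both directions, as all genes did. In Col-0 5 of the 10 members rose (RVE7, RVE2, RVE4, RVE1 and LNK2) and 2 fell (LHY and RVE8) at an adjusted p under 0.05 in edgeR's quasi-likelihood test with Benjamini-Hochberg adjustment over all genes, where 29% of the 19711 tested genes rose and 30.4% fell. In bbx28-5 6 rose and 2 fell, with CCA1 added to the rises, where 34.4% of all genes rose and 33.1% fell. The share of members called in either direction was thus near that of all genes, and the values of single members follow. The median log2 change of the members was 0.46 in Col-0 and 0.80 in bbx28-5, against -0.02 and 0.00 over all tested genes. The 2 shade comparisons use different libraries.

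Between the genotypes, 4 members were higher in bbx28-5 in white light (LHY, CCA1, RVE4 and RVE2) and none lower, against 3.8% of all genes higher and 6.08% lower. In shade 5 were higher (CCA1, RVE4, RVE7, LNK2 and LHY) and 1 lower (RVE8), against 20.9% and 14.5%. The response to shade itself differed between the genotypes for 3 members, being more positive in bbx28-5 for CCA1 and RVE7 and more negative for RVE8, against 6.52% of all genes more positive and 3.79% more negative. The genotype comparisons share their libraries with the shade comparisons and are given side by side for that reason. With total counts in place of TMM 3 members were higher and 1 lower for genotype in shade, against 7.65% and 33.2% of all genes. For the difference in response 1 was then more positive and 2 were more negative, against 2.43% and 13.4% of all genes. Without bbx28_SS replicate 2 calls were more frequent over all genes as well as among the members. The members called were then 7 for genotype in white light, all higher, where 11.2% of all genes were higher and 12.7% lower. They were 7 for genotype in shade, also all higher, against 27.4% and 16.2% of all genes, and 6 for the difference in response, 5 of them more positive, against 15.6% and 7.2%. The white-light count was 2 without Col0_WL replicate 1 or bbx28_WL replicate 1 or 2. Calls over all genes were then fewer too, at 1054, 1231 and 1001 against 1947 with all libraries. The count for the difference in response was 1 without Col0_WL replicate 2, bbx28_WL replicate 1 or 3, or Col0_SS replicate 1 or 3. Over all genes these fits called 1130 to 1350 genes, against 2032 with all libraries. Member medians were 0.39 for genotype in white light, 0.35 for genotype in shade and 0.04 for the difference in response, against 0.00, 0.03 and 0.05 over all genes.

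**Figure D1:**
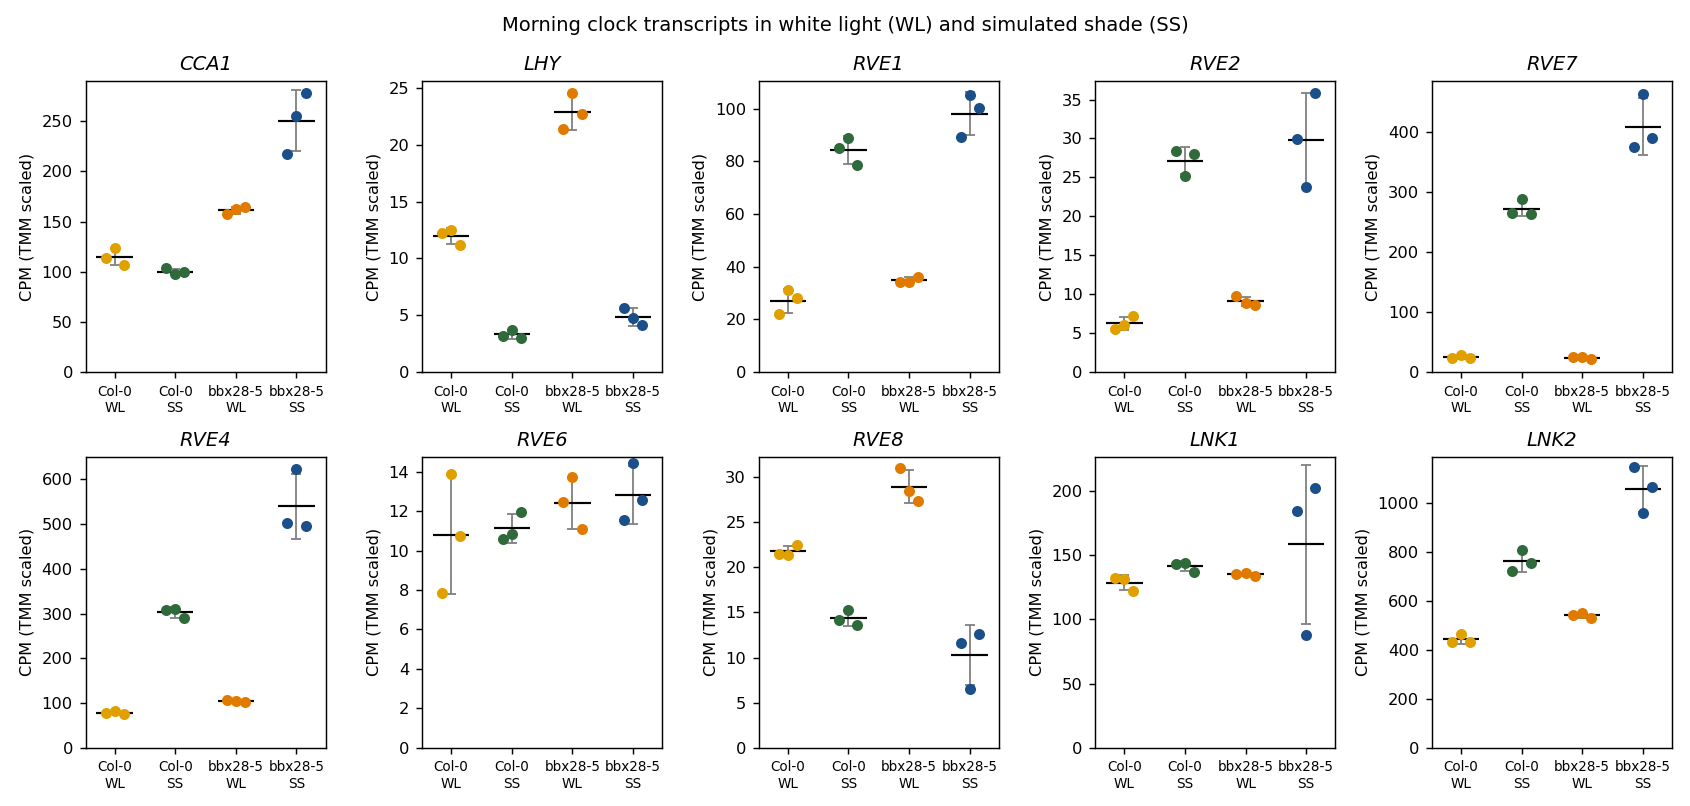
Level of each of the 10 transcripts in CPM (TMM scaled, linear axis from 0) in the 3 libraries of each group, with the mean as a line and the SD as a bar. RVE7 and RVE4 rise in shade in both genotypes, LHY and RVE8 fall, and 1 library of bbx28-5 in shade lies low for LNK1 and RVE8.

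Per base of transcript the family spans a wide range of levels. Expressed as CPM per kb of the longest annotated transcript, LNK2 was the most abundant member in all 4 groups, at 176 ± 7.5 in Col-0 in white light and 302 ± 16.9 in Col-0 in shade (SD, n = 3). LHY was the least abundant in Col-0 in white light (4.08 ± 0.237) and in both shade groups (1.13 ± 0.131 in Col-0 and 1.65 ± 0.258 in bbx28-5). In bbx28-5 in white light LHY (7.80 ± 0.542) and RVE6 (7.51 ± 0.788) lay within their spread.

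The order in between changed with the light. In Col-0 in white light LNK1 (48.2 ± 2.21), RVE4 (48.1 ± 2.22) and CCA1 (43.7 ± 3.25 CPM per kb) lay close together. LNK1 and RVE4 were within their spread, and CCA1 overlapped the lower end of both. Next came RVE1 (13.9 ± 2.41) and RVE7 (12.9 ± 1.59), also within their spread, and RVE8 (10.7 ± 0.307). RVE6 and RVE2 (6.54 ± 1.84 and 6.36 ± 0.874) followed, again within theirs. In Col-0 in shade RVE4 (185 ± 7.20) and RVE7 (144 ± 6.98) stood next after LNK2, before LNK1 (53.0 ± 1.46), RVE1 (43.3 ± 2.67), CCA1 (38.1 ± 1.11), RVE2 (27.7 ± 1.79), RVE8 (7.05 ± 0.415) and RVE6 (6.73 ± 0.443). RVE8 and RVE6 did not differ beyond their spread there. Per kb of the mean transcript length in place of the longest, the order of these 3 genes in Col-0 in white light became RVE4 (56.2), CCA1 (50.2) and LNK1 (49.6), and in Col-0 in shade CCA1 (43.8) stood level with RVE1 (43.5), so such close neighbours have no firm order. In bbx28-5 in white light RVE4 (64.3 ± 1.31) and CCA1 (61.4 ± 1.29) followed LNK2 (215 ± 4.21), and then came LNK1 (50.6 ± 0.548), RVE1 (17.9 ± 0.570), RVE8 (14.2 ± 0.923), RVE7 (12.5 ± 0.671) and RVE2 (9.25 ± 0.603). In bbx28-5 in shade LNK2 (420.3 ± 37.4), RVE4 (331 ± 44.3) and RVE7 (216 ± 24.9) led, CCA1 (95.3 ± 11.6) stood before LNK1 (59.4 ± 23.2), RVE1 (50.4 ± 4.20) and RVE2 (30.4 ± 6.14), and RVE6 (7.76 ± 0.889) and RVE8 (5.03 ± 1.63) were near the bottom. LNK1 and RVE1 lay within their spread in that group, and the libraries of LNK2 and RVE4 met at the edge of their ranges. The level of RVE7 is uncertain, since 55.1% of the 50-base stretches of its exons also occur in AT3G10113 or AT3G10110, 2 annotated genes at another locus, and how reads that match more than 1 place were treated is not given. AT3G10113 itself had 0 counts in all in Col-0 in white light, 9 in Col-0 in shade, 2 in bbx28-5 in white light and 18 in bbx28-5 in shade.

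CCA1, a core MYB repressor of evening genes, had the smallest adjusted p of the members for a difference in shade response between the genotypes. White light gave 114, 124 and 107 CPM in replicates 1 to 3 of Col-0 against 158, 162 and 164 CPM in bbx28-5. Under shade the levels were 103, 97.5 and 99.7 CPM in Col-0 against 218, 255 and 278 CPM in bbx28-5. No library of bbx28-5 overlapped Col-0 in either light, and shade lay slightly below white light in Col-0 but above it in bbx28-5. The log2 change with shade was -0.20 ± 0.0992 in Col-0 (SE, adjusted p = 0.101) and 0.63 ± 0.0988 in bbx28-5 (adjusted p = 5.51e-05), the latter 0.29 with total counts (adjusted p = 0.019). The difference between these responses was 0.83 ± 0.140 (adjusted p = 0.00283), 0.54 with total counts in place of TMM (adjusted p = 0.0231). By genotype CCA1 was higher in bbx28-5 by 0.49 ± 0.0990 in white light (adjusted p = 0.00625) and by 1.32 ± 0.10 in shade (adjusted p = 1.14e-06), a 2.5-fold difference. The Col-0 value passed the threshold in 5 alternatives: without bbx28_SS replicate 1 (adjusted p = 0.0247), 2 (0.00655) or 3 (0.0302), with total counts (0.0496) and in a fit of the Col-0 libraries alone (0.0151).

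LHY, the closest relative of CCA1 in sequence and role, fell in shade in bbx28-5, where CCA1 rose. Under white light the levels were 12.2, 12.5 and 11.2 CPM in Col-0 against 21.4, 24.5 and 22.7 CPM in bbx28-5. Shade gave 3.20, 3.74 and 2.99 CPM in Col-0, from 48, 47 and 42 counts, against 5.66, 4.73 and 4.15 CPM in bbx28-5, from 52, 41 and 45 counts. The groups did not overlap in any of the 4 comparisons, with shade low in both genotypes and bbx28-5 high in both lights. LHY fell in shade by 1.85 ± 0.141 on the log2 scale in Col-0 (adjusted p = 6.57e-08) and by 2.24 ± 0.137 in bbx28-5 (adjusted p = 4.41e-09), and the difference of -0.39 ± 0.202 missed the threshold (adjusted p = 0.236) but passed it with total counts (-0.68, adjusted p = 0.035). In white light it was 1.91-fold higher in bbx28-5 (0.93 ± 0.118, adjusted p = 0.000233). In shade it was higher by 0.55 ± 0.163 (adjusted p = 0.0182), and that call ended with total counts (0.24, adjusted p = 0.253), in a fit of the shade libraries alone (0.139) and without Col0_SS replicate 1 (0.0584), Col0_SS replicate 3 (0.0738) or bbx28_SS replicate 1 (0.0696).

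The clock-output REVEILLE genes all rose in shade. RVE7, also named EARLY-PHYTOCHROME-RESPONSIVE1, had the largest log2 change of the 10 members in both genotypes. White light gave 22.7, 27.9 and 22.7 CPM in Col-0 against 24.2, 24.7 and 22.3 CPM in bbx28-5. Shade gave 266, 288 and 264 CPM in Col-0 against 375, 463 and 389.9 CPM in bbx28-5. The genotypes overlapped in white light and were apart in shade. The change with shade was 3.48 ± 0.119 log2 units in Col-0 (adjusted p = 4.54e-11), 11.2-fold, and 4.11 ± 0.122 in bbx28-5 (adjusted p = 8.45e-12), 17.2-fold. The genotypes differed by 0.59 ± 0.106 in shade (adjusted p = 0.000899), or 0.28 with total counts (adjusted p = 0.0353), and by -0.04 ± 0.115 in white light (adjusted p = 0.898). The difference in response was 0.63 ± 0.157 (adjusted p = 0.0227). That last call ended with total counts (0.33, adjusted p = 0.127) and without Col0_WL replicate 2 (0.0646), bbx28_WL replicate 1 (0.0527) or 3 (0.0647), or Col0_SS replicate 1 (0.0552) or 3 (0.0628).

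RVE1, which in Arabidopsis links the clock to auxin synthesis through YUC8, measured 21.9, 31.2 and 28.0 CPM in Col-0 against 34.3, 34.2 and 36.2 CPM in bbx28-5 under white light. Under shade the levels were 85.0, 89.0 and 78.7 CPM in Col-0 against 89.1, 105 and 100.1 CPM in bbx28-5. Shade libraries lay far above white-light libraries, and the genotypes did not overlap in either light, though in shade they all but touched (89.0 and 89.1 CPM). RVE1 rose by 1.64 ± 0.122 in Col-0 (adjusted p = 4.98e-08) and by 1.49 ± 0.121 in bbx28-5 (adjusted p = 7.75e-08), with a difference in response of -0.15 ± 0.169 (adjusted p = 0.608). By genotype the log2 differences were 0.37 ± 0.122 in white light (adjusted p = 0.0759) and 0.22 ± 0.117 in shade (adjusted p = 0.163), and the latter was -0.09 with total counts and passed with transcript length offsets (0.29, adjusted p = 0.0427). The white-light value passed in 5 alternatives, among them the fit without bbx28_SS replicate 2 (adjusted p = 0.00603) and that of the white-light libraries alone (0.00737).

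RVE2, known as CIRCADIAN 1, behaved in a similar way at a lower level. White light gave 5.53, 5.99 and 7.19 CPM in Col-0 against 9.73, 8.86 and 8.61 CPM in bbx28-5, from 78 to 143 counts. Shade gave 28.3, 25.1 and 28.0 CPM in Col-0 against 29.9, 23.8 and 35.8 CPM in bbx28-5. The genotypes overlapped in shade but not in white light. RVE2 rose by 2.12 ± 0.151 in Col-0 (adjusted p = 3.34e-08) and by 1.72 ± 0.148 in bbx28-5 (adjusted p = 1.4e-07), and the difference of -0.40 ± 0.211 missed the threshold (adjusted p = 0.241). In white light it was higher in bbx28-5 by 0.54 ± 0.162 (adjusted p = 0.0495), a call at the edge of the threshold that ended under total counts (0.093), with no filter on low counts (0.056), with transcript length offsets (0.0705) and without any 1 library other than Col0_WL replicate 3 and bbx28_SS replicates 2 and 3 (0.0596 to 0.192). In shade the genotype difference was 0.14 ± 0.136 (adjusted p = 0.455), -0.16 with total counts and 0.30 without bbx28_SS replicate 2 (adjusted p = 0.0207).

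**Figure D2:**
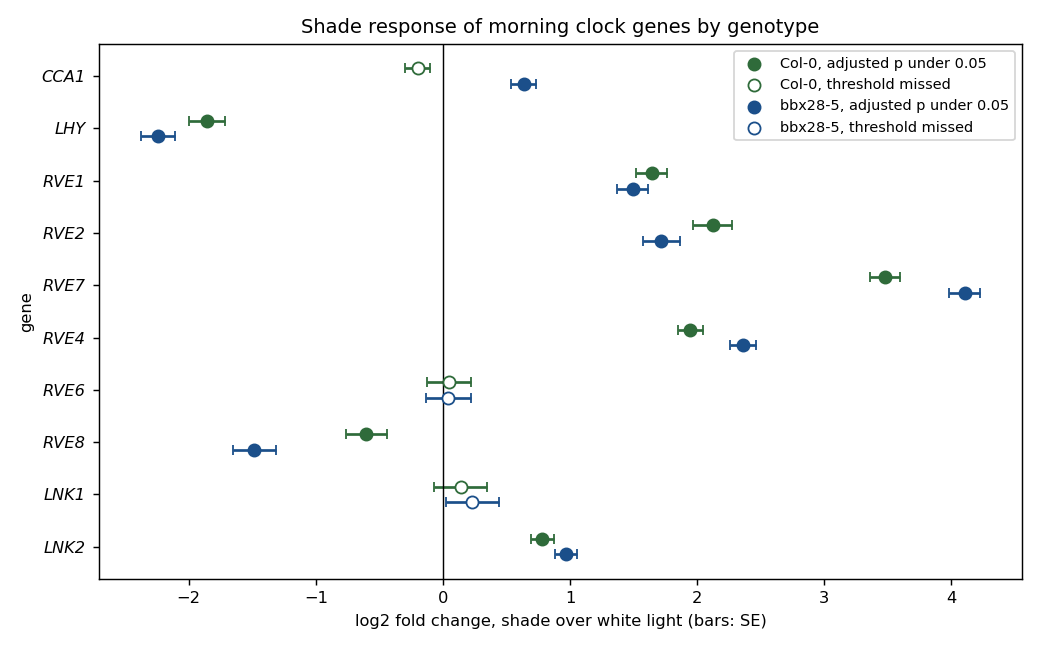
Log2 fold change of shade over white light for each member in Col-0 (green) and bbx28-5 (blue), with the SE as bars and filled points where the adjusted p is under 0.05. CCA1 lies at -0.20 in Col-0 and 0.63 in bbx28-5, RVE7 at 3.48 and 4.11, and RVE8 at -0.60 and -1.49.

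The evening-gene activators RVE4, RVE6 and RVE8 went apart. For RVE4 white light gave 76.9, 82.6 and 75.9 CPM in Col-0 against 107, 105 and 103 CPM in bbx28-5. Under shade the levels were 308, 310.2 and 289 CPM in Col-0 against 501, 623 and 495 CPM in bbx28-5. Its 4 groups did not overlap and stood in the order Col-0 white light, bbx28-5 white light, Col-0 shade and bbx28-5 shade. RVE4 rose in shade by 1.95 ± 0.101 in Col-0 (adjusted p = 1.62e-09) and by 2.36 ± 0.102 in bbx28-5 (adjusted p = 1.59e-10). It was higher in bbx28-5 by 0.42 ± 0.0987 in white light (adjusted p = 0.0148) and by 0.83 ± 0.0973 in shade (adjusted p = 2.99e-05), or 0.52 with total counts (adjusted p = 3e-04). The white-light call ended without Col0_WL replicate 1 (0.0655) or 3 (0.063) or bbx28_WL replicate 1 (0.0632) or 2 (0.0573). The difference in response, 0.41 ± 0.138, missed the threshold (adjusted p = 0.0722), and passed in DESeq2 (0.0348), with transcript length offsets (0.0358) and without any 1 of the bbx28_SS replicates (0.0366, 0.00766 and 0.0309). With total counts it was 0.12.

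RVE8, which activates evening genes in the afternoon together with RVE4 and RVE6, moved against RVE4. Under white light the levels were 21.5, 21.3 and 22.5 CPM in Col-0 against 31.0, 28.5 and 27.4 CPM in bbx28-5. Shade gave 14.2, 15.3 and 13.6 CPM in Col-0 against 11.6, 6.46 and 12.6 CPM in bbx28-5, from 107, 56 and 137 counts. The bbx28-5 libraries were all higher than Col-0 in white light and all lower in shade. RVE8 fell in shade by 0.60 ± 0.159 in Col-0 (adjusted p = 0.00479) and by 1.49 ± 0.169 in bbx28-5 (adjusted p = 2.47e-06), and the responses differed by -0.88 ± 0.232 (adjusted p = 0.0282). Without bbx28_SS replicate 2 that difference was -0.62 (adjusted p = 0.00224), and without any 1 of the Col-0 or bbx28_WL libraries it ran from -0.83 to -0.93 with adjusted p from 0.0529 to 0.0754. The genotype difference was 0.41 ± 0.153 in white light (adjusted p = 0.118, and 0.000568 without bbx28_SS replicate 2) and -0.47 ± 0.174 in shade (adjusted p = 0.0483). The shade value rested on bbx28_SS replicate 2, since without it the log2 difference was -0.21 (adjusted p = 0.139). With total counts it was -0.77 (adjusted p = 0.00639). The call also ended in 13 other alternatives (adjusted p from 0.0541 to 0.143).

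RVE6, the third member of that subgroup, had no call in any comparison. White light gave 7.82, 13.9 and 10.7 CPM in Col-0 against 12.5, 13.7 and 11.1 CPM in bbx28-5. Under shade the levels were 10.6, 10.8 and 12 CPM in Col-0 against 11.5, 14.4 and 12.6 CPM in bbx28-5. All 4 groups were near one level and Col-0 in white light had the widest spread. The log2 change with shade was 0.05 ± 0.174 in Col-0 and 0.04 ± 0.177 in bbx28-5 (adjusted p = 0.83 and 0.839), and the genotype differences were 0.21 ± 0.173 and 0.20 ± 0.178 (adjusted p = 0.559 and 0.4). It had 106 to 183 counts per library.

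LNK2, a coactivator that the RVE proteins recruit, was the most abundant member and rose in shade. Under white light the levels were 432, 465 and 434 CPM in Col-0 against 543, 552 and 531 CPM in bbx28-5. Shade gave 724, 809 and 754 CPM in Col-0 against 1150.1, 962 and 1068 CPM in bbx28-5. The groups did not overlap and stood in the same order as for RVE4. LNK2 rose by 0.78 ± 0.0885 in Col-0 (adjusted p = 3.48e-06) and by 0.97 ± 0.0887 in bbx28-5 (adjusted p = 2.73e-07), the latter 0.63 with total counts, and the difference of 0.19 ± 0.124 missed the threshold (adjusted p = 0.362). That difference was -0.10 with total counts and 0.28 without bbx28_SS replicate 2 (adjusted p = 0.0225). In shade LNK2 was higher in bbx28-5 by 0.48 ± 0.0881 (adjusted p = 0.00104), and with total counts that call ended (0.18, adjusted p = 0.156). In white light the difference of 0.29 ± 0.0881 missed the threshold (adjusted p = 0.0537), and passed in 6 alternatives, as in DESeq2 (0.00323).

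LNK1, the partner of LNK2, stayed near one level in 3 of the groups. It measured 132, 132 and 122 CPM in Col-0 against 135, 136 and 134 CPM in bbx28-5 under white light, and 143, 144 and 137 CPM in Col-0 in shade. In bbx28-5 in shade it measured 185, 87.8 and 203 CPM. The low library there is replicate 2, the one that stands apart over all genes, and it is the only case of a member at least 2-fold from the other libraries of its group. With all libraries no comparison passed, with a log2 change of 0.14 ± 0.208 for shade in Col-0 (adjusted p = 0.589; 0.0295 in a fit of the Col-0 libraries alone) against 0.23 ± 0.208 for bbx28-5 (adjusted p = 0.339). The genotype differences were 0.07 ± 0.208 in white light and 0.16 ± 0.208 in shade (adjusted p = 0.901 and 0.573). Without replicate 2 LNK1 rose in bbx28-5 by 0.50 (adjusted p = 3.47e-07), was higher than Col-0 in shade by 0.48 (adjusted p = 2.91e-06) and differed in response by 0.41 (adjusted p = 0.00159).

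**Figure D3:**
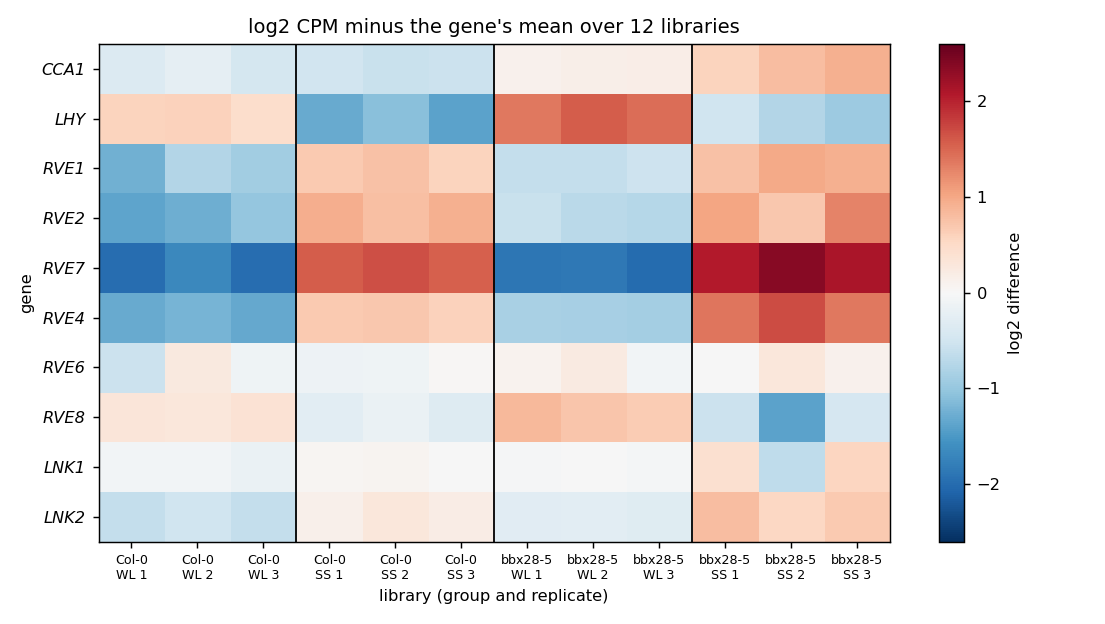
Log2 CPM of each member in each of the 12 libraries minus the mean of that gene, red above and blue below, with the libraries in groups of 3. The white-light and shade blocks contrast most for RVE7, and CCA1 follows the genotype more than the light.

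Ratios of counts within a library do not depend on how libraries are scaled. The ratio of CCA1 to LHY counts was 9.32, 9.90 and 9.56 in Col-0 and 7.37, 6.61 and 7.22 in bbx28-5 in white light. It was 32.3, 26.1 and 33.3 in Col-0 and 38.5, 53.9 and 67.0 in bbx28-5 in shade. The ratio was therefore lower in bbx28-5 than in Col-0 in white light and higher in shade, with no overlap. The ratio of RVE4 to RVE8 counts was 3.37 to 3.87 in Col-0 and 3.45 to 3.76 in bbx28-5 in white light, which overlap, and 20.3 to 21.7 and 39.1 to 96.4 in shade, which do not. The highest of these values is that of bbx28_SS replicate 2. The ratio of LNK2 to LNK1 counts was 3.26 to 3.56 and 3.97 to 4.04 in white light, and 5.06 to 5.61 and 5.27 to 11 in shade, where the genotypes overlap. With 3 libraries against 3, no exact permutation test of 1 such ratio could pass the threshold, and none was run.

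**Figure D4:**
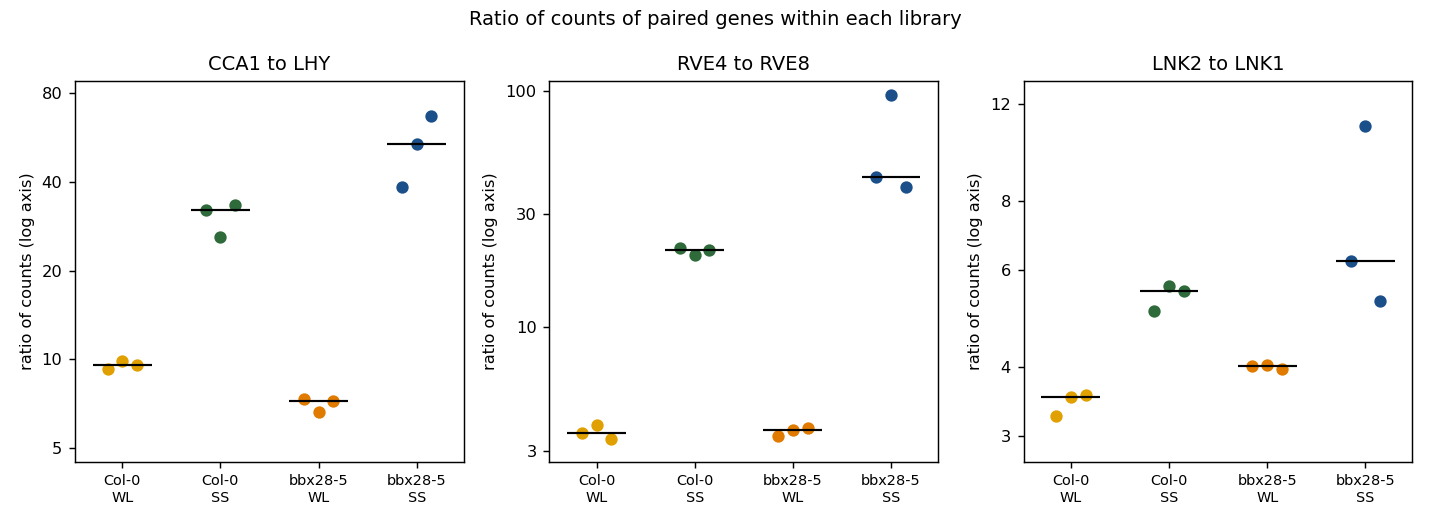
Ratio of the counts of CCA1 to LHY, RVE4 to RVE8 and LNK2 to LNK1 in each library (log axis), with the group median as a line. The shade groups lie above the white-light groups of the same genotype for the 3 ratios, and the bbx28-5 shade group lies above Col-0 in shade for the first pair and the middle pair.

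Most of the other clock genes were also higher in shade. Of 24 other clock genes (the PRR genes, the evening complex, GI, the ZTL family, RVE3, RVE5, LNK3, LNK4 and other clock-associated genes) 17 rose and 1 fell in Col-0, with a median log2 change of 0.92, against 29% of all genes higher and 30.4% lower. In bbx28-5 18 rose and 1 fell (34.4% and 33.1% of all genes), and the median was 1.30. The gene that fell was RVE3 in both genotypes, a call that in Col-0 ended without Col0_WL replicate 2 (adjusted p = 0.0569) or 3 (0.0985) or Col0_SS replicate 1 (0.14). With total counts 16 rose and 2 fell in Col-0, against 26.7% and 32.4% of all genes. In bbx28-5 14 then rose and 3 fell (RVE3, LNK3 and CHE), against 23.6% and 45.9% of all genes. By genotype 14 of the 24 were higher in bbx28-5 in shade and none lower, against 20.9% of all genes higher and 14.5% lower. Total counts gave 6 higher and 1 lower there, against 7.65% and 33.2% of all genes. In white light 1 of the 24, RVE3, was higher, near the share of 3.8% of all genes, at 6.04 ± 0.598 against 10.6 ± 0.596 CPM. The difference in response passed for 4 of the 24, each more positive in bbx28-5 (XCT, TOC1, LUX and PRR5), against 6.52% of all genes more positive and 3.79% more negative. With total counts 2 were more positive (XCT and PRR5) and 2 more negative (RVE3 and LNK3), against 2.43% and 13.4% of all genes. The call of PRR5 ended without bbx28_WL replicate 1 (adjusted p = 0.0579) or 3 (0.0504). Without bbx28_SS replicate 2 it passed for 13 (11 more positive and 2 more negative, against 15.6% and 7.2% of all genes), and 6 were higher in bbx28-5 in white light, against 11.2% of all genes. The white-light call of RVE3 ended without Col0_WL replicate 1 or bbx28_WL replicate 3.

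TOC1, an evening repressor of CCA1 and LHY and a target of RVE8, went from 20.1 ± 0.691 to 64.0 ± 3.70 CPM in Col-0, against 19.7 ± 1.16 to 96.3 ± 7.25 CPM in bbx28-5 (SD, n = 3). Its responses differed by 0.61 ± 0.133 log2 units (adjusted p = 0.0111), a call that ended with total counts (0.33, adjusted p = 0.145). LUX, the DNA-binding subunit of the evening complex, went from 11 ± 2.14 to 33.0 ± 1.03 CPM in Col-0, against 10.2 ± 0.970 to 56.0 ± 7.12 CPM in bbx28-5, with a difference in response of 0.87 ± 0.194 (adjusted p = 0.0132; 0.57 and 0.0552 with total counts). For both genes, as for RVE7, the genotypes lay close together in white light and apart in shade. PRR7, a daytime repressor of CCA1 and LHY, was 593 ± 33.3 CPM in Col-0 against 840.0 ± 159 CPM in bbx28-5 in shade, higher by 0.50 ± 0.121 (adjusted p = 0.0056), and ELF3 was higher by 0.61 ± 0.115 (adjusted p = 0.00126). Both calls ended with total counts (0.21 and 0.31, adjusted p = 0.233 and 0.0786), and that of PRR7 in a fit of the shade libraries alone (0.0931). In shade XCT, needed for normal clock speed, was higher in bbx28-5 than in Col-0 by 0.67 ± 0.0967 (adjusted p = 0.000159). LNK4 was higher in the same comparison by 0.68 ± 0.108 (0.00035) and BOA, a relative of LUX, by 1.39 ± 0.215 (0.000277). COR27, a cold- and light-regulated clock repressor, was at 0.467 to 0.641 CPM in Col-0 against 1.41 to 5.77 CPM in bbx28-5 in shade, higher by 2.77 ± 0.519 (adjusted p = 0.00112). With total counts these stayed past the threshold, at 0.37 for XCT, 0.37 for LNK4, 1.08 for BOA and 2.46 for COR27.

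Genes most like each member were sought among 17053 other tested genes by the root mean square difference, over the 12 libraries, of log2 CPM centred on the mean of each gene. This measure is small where 2 genes move by the same amounts, and the libraries share their light and genotype groups. For LHY the nearest were EXPA10, an expansin gene (0.105), and AT5G46580 (0.184), against a spread (SD over the libraries) of LHY itself of 1.08 log2 units. For RVE7, with a spread of 1.91, they were EXO (0.132) and DIN4 (0.149). For RVE4, with a spread of 1.13, they were RFI2 (0.106) and ATAN11 (0.116). Smaller spreads leave less to match: CCA1 (0.515) was nearest to SQE6 (0.147) and FAD5 (0.157), RVE1 (0.808) to TOPP1 (0.116) and ACHT5 (0.122), RVE2 (0.978) to ABCG1 (0.172) and DG1 (0.182), and RVE8 (0.624) to THY-1 (0.116) and AT1G12460 (0.119). LNK2 (0.483) was nearest to AT2G34750 (0.0650) and AT5G65380 (0.0773), LNK1 (0.282) to HAC1 (0.0741) and AT4G31880 (0.0752), and RVE6 (0.223) to AT5G43680 (0.145) and AT3G57785 (0.149). Among the members themselves RVE1 and RVE2 were the most alike (0.261), followed by RVE2 and RVE4 (0.361) and RVE1 and RVE4 (0.379).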

How the data were processed

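Libraries came from total RNA through a stranded mRNA kit, per the labels' protocols. The authors deposited raw read counts for 32833 genes in 12 libraries and a filtered table of log2 values for 19724 genes, which recomputation from the counts matched within 5e-14 as log2 CPM after TMM scaling with an offset of 0.5. FastQC, HISAT, SAMtools, HTSeq and edgeR on build TAIR10 are named, per the submitters' processing notes, with no versions. How HTSeq treated strand and multiple matches is not stated. RVE1, LNK1 and LNK2 overlap genes on the other strand, so part of their counts may be shared or lost.

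Tests started from the counts. filterByExpr kept 19711 genes holding 99.93% of the counts. A single edgeR 4.0.16 quasi-likelihood model (R 4.3.3, TMM, a mean per group, all 12 libraries) gave 5 contrasts, adjusted over all genes by Benjamini-Hochberg (threshold 0.05). The model was also run on simulated counts in which few genes changed, evenly up and down, in Col-0 in shade only. That run does not cover changes as wide, or scaling as uneven, as in these data. SE values come from the test statistic and a spread shared by the groups. Levels between genes use the longest transcript of the TAIR10.1 annotation, whose nuclear chromosomes are those of TAIR10. A floor of 3 counts is 0.21 to 0.283 CPM per library, and it covers counting error only. DESeq2 1.42.0, limma 3.58.1 and other scalings, filters and sample sets were alternatives. The members and lists were chosen with earlier results of these data known. The named genes are all members, up to 8 other clock genes with the smallest adjusted p for genotype in shade or the interaction, and the 2 genes most like each member. PRR5, RVE3, LNK3, CHE and member pairs were named after their values were seen.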

Additional observations from a re-analysis of the deposited data

Results flagged for a closer look

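For 3 members the test of the difference between the shade responses of bbx28-5 and Col-0 passed, on the log2 scale at 0.83 for CCA1, 0.63 for RVE7 and -0.88 for RVE8 (edgeR, adjusted p = 0.00283, 0.0227 and 0.0282). CCA1 kept this call in all alternatives that were run, whereas those for RVE7 and RVE8 ended in some, as given beside their values. Every CCA1 library of bbx28-5 in shade lay above those of white light and every one of Col-0 in shade below, at 218 to 278 against 158 to 164 CPM and 97.5 to 103 against 107 to 124 CPM.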

How the results depend on the processing

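Of 28 member results past the threshold, 21 stayed past it in all alternatives run and none reversed. These are the 15 shade calls, CCA1 and LHY by genotype in white light, CCA1, RVE4 and RVE7 by genotype in shade, and the CCA1 difference in response. The like share over all tested genes is not given here, so these counts do not set the members apart. Among the fits that left out 1 library, the highest counts for genotype in white light and for the difference in response came without bbx28_SS replicate 2. The white-light comparison holds no library of that group but takes its spread from all groups. CCA1 in that comparison was 0.49 with and without the replicate (edgeR, adjusted p = 0.00625 and 3.63e-05). The cause of the higher counts was not tested. Without 1 library each the members called ran from 7 to 8 for shade in Col-0, 8 to 9 for shade in bbx28-5, 2 to 7 by genotype in white light, 4 to 7 by genotype in shade and 1 to 6 for the difference in response. Other clock genes called ran from 15 to 21, 18 to 21, 0 to 6, 10 to 18 and 3 to 13, in the same order. Over all genes these fits called 10414 to 13902, 12323 to 14499, 994 to 4766, 5165 to 8691 and 1130 to 4545 genes. Fits of only the groups compared gave 7 members and 6 other clock genes for genotype in white light (4 and 1 with all libraries) and 8 other clock genes for genotype in shade (14). Total counts gave 7 other clock genes there. Transcript length offsets gave 2 other clock genes for genotype in white light and 8 for the difference in response (4). Over all genes the offsets gave 2817 (1947) and 2949 (2032) calls in these comparisons. With the replicate block the members called were 7, 8, 4, 5 and 3, against 7, 8, 4, 6 and 3. The call lost was RVE8 by genotype in shade (adjusted p = 0.0587). Over all genes the block gave 11410, 13053, 1568, 6451 and 1527 calls, against 11716, 13308, 1947, 6974 and 2032. Replicate numbers showed no pairing of libraries over all genes. Correlations of deviations ran from -0.123 to 0.0975 between same-numbered libraries and from -0.0865 to 0.103 between others. A batch that bears on some genes only was not tested.

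Total counts lowered the median of all genes by 0.34 (shade in bbx28-5), 0.30 (genotype in shade) and 0.29 (difference in response), and by at most 0.05 elsewhere. The calls over all genes were then 4644 higher and 9043 lower (6786 and 6522 with TMM), 1507 and 6536 (4124 and 2850), and 479 and 2641 (1285 and 747). Fits of only the groups compared called 5093 genes for genotype in white light (1947) and 3693 for genotype in shade (6974), and leaving out 1 library gave 994 to 4766 for genotype in white light and 1130 to 4545 for the difference in response (2032). Values that missed the threshold turned sign with total counts for RVE6 (-0.0031 for shade in Col-0, -0.30 for shade in bbx28-5 and -0.10 by genotype in shade), LNK1 (-0.0913 for shade in bbx28-5, -0.12 by genotype in shade and -0.18 for the difference in response), RVE1 (-0.0871) and RVE2 (-0.16) by genotype in shade, and LNK2 (-0.10 for the difference in response). RVE6 for shade in bbx28-5 was -0.0037 in a fit of bbx28-5 alone. Without 1 library each RVE6 ran from -0.19 to 0.27 for shade in Col-0, -0.0626 to 0.12 for shade in bbx28-5 and -0.22 to 0.21 for the difference in response. LNK1 ran from -0.0034 to 0.50 for shade in bbx28-5, -0.0274 to 0.48 by genotype in shade and -0.10 to 0.41 for the difference in response. RVE7 by genotype in white light ran from -0.10 to 0.0574, and the RVE1 difference in response from -0.27 to 0.0062. LHY in shade rests on 41 to 52 counts per library, so counting error limits its fold.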
